A study of Mus musculus with 18 samples.

Results

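The 10 genes described here are the homing chemokines of the splenic white pulp, their receptors and the lymphotoxins: Ccl21a, Ccl21b, Ccl19, Cxcl13 and Cxcl12, then Ccr7, Cxcr5 and Cxcr4, then Lta and Ltb. They were taken by gene symbol and not by a cut on their values, but earlier results of these data were known when they were chosen. Each was found in 1 of the 19326 lines of the expression table. RNA of whole spleens from ICR mice aged 10 weeks was sequenced in 18 libraries, 3 for each of 6 groups. Con animals were controls kept on regular food with saline, and A10 animals were given AOS (alginate oligosaccharide, fragments of a polysaccharide of brown seaweed) at 10 mg/kg. STZ animals were given streptozotocin, which destroys the insulin-producing beta cells and serves as a model of type 1 diabetes, and STZ-A10 animals were given both agents. A10-FMT and Con-FMT animals were given STZ and then, by mouth, intestinal microbiota from donors dosed with AOS at 10 mg/kg (A10-FMT) or from control donors (Con-FMT). In the methods of the study the animals were male, STZ was a single dose, and the small intestinal content of each donor group was pooled, so all mice of a transplant group received the same material. How AOS reached the A10 and STZ-A10 mice is not given in the sources used here. The labels name separate samples but not separate animals, so the p-values below measure the spread between these libraries.

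The white pulp is the lymphoid part of the spleen. Fibroblastic reticular cells of its T cell zone make CCL21 and CCL19, which draw T cells and mature dendritic cells that carry CCR7, while stromal and follicular dendritic cells of the follicles make CXCL13, which draws B cells that carry CXCR5. CXCL12, made by stroma and vessels, acts on CXCR4 and holds plasma cells and progenitors, and lymphotoxin made by lymphocytes (LTA and LTB) acts on the lymphotoxin beta receptor of the stroma to sustain the chemokine genes.

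Both mouse genes for CCL21 in this set lie on chromosome 4 (GRCm38, the mm10 build), Ccl21a at 42772860 to 42773993 on the minus strand and Ccl21b at 42255767 to 42256432 on the plus strand. Ccl19 is 16282 bases from Ccl21a, at 42754525 to 42756577 on the minus strand. The coding sequences of Ccl21a and Ccl21b in GENCODE are 402 bases long and differ at 2 positions, T84A and C194T, counted from the A of the start codon with the Ccl21a base first. The windows of the coding sequence around both positions are shown because they are all that separates reads of these genes within the coding part; capitals mark the differing base.
Ccl21a, bases 64 to 104: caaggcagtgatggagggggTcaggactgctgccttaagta
Ccl21b, bases 64 to 104: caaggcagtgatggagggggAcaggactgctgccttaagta
Ccl21a, bases 174 to 214: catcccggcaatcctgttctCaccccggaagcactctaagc
Ccl21b, bases 174 to 214: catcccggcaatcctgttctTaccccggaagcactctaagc
Ccl21b is identical over all 402 coding bases to 3 further genes, Gm10591, Gm13304 and Gm21541. In the deposited table these 3 and Ccl21c carried the same value as each other in all 18 libraries, between 0 and 0.96 RPKM and at 0 in 9 libraries. How reads were shared out among the copies is not given in the sources used here, so the values of Ccl21a and Ccl21b are uncertain with respect to each other.

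Promoter sequence was at hand in the RefSeq tables (GRCm38.p6) for 8 of the 10 genes, and for neither Ccr7 nor Cxcr5. Both strands of the 250 bases before each RefSeq start were searched for a consensus motif of NF-kB, the transcription factor family that acts downstream of the lymphotoxin beta receptor. Sites that depart from this consensus were not searched for. The RefSeq start of Ccl21b lies 82647 bases upstream of the GENCODE position given above, so its window is not next to that position. That of Ccl19 lies 212 bases downstream of its GENCODE start, so most of the Ccl19 window is inside the GENCODE gene. The motif occurred in 3.90% of 32851 promoters and, among these 8 windows, only in that of Ltb, on the opposite strand. The match begins 87 bases before the RefSeq start (35194507) and 19 bases before the GENCODE start (35194439). The window of this match, the single hit among these genes, is shown with the match in capitals.
Ltb, chr17:35194395-35194438, plus strand: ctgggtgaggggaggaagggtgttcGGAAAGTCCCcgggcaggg
A match is a description of these letters, not a site shown to be bound in these spleens.

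The values are RPKM, reads scaled to gene length and to the mapped reads of the library, so levels can be compared between genes on a per-length scale. The libraries were recognisable as spleen: the spleen transcription factor gene Tlx1 was at 8.91 to 24.0 RPKM, the T cell gene Cd3e at 4.96 to 41.9 and the B cell gene Ms4a1 at 74.4 to 355. Markers of high endothelial venules, the vessels through which lymphocytes enter lymph nodes but which the spleen lacks, were near 0 (Glycam1 at 0 in 12 of 18 libraries and at most at 0.55 RPKM). Hemoglobin genes took 10.4% to 42.7% of the summed RPKM. A10-FMT replicate 3 stood apart, with the highest hemoglobin share and the lowest summed level of 14 T cell markers (97.6 RPKM, against 249 to 540 in the other 17 libraries). It also had the lowest value of 9 of the 10 genes described here, so the fold changes of A10-FMT and the counts over the 10 genes and the pathway lists in its comparisons are given without it too.

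Ccl21a, the main CCR7 ligand of the T cell zone stroma, was the most abundant of the 10 per gene length, at a median of 1023 RPKM over the 18 libraries. Replicates 1 to 3 were at 575, 1115 and 707 RPKM in Con and at 1227, 1164 and 1032 in A10. They were at 1724, 1014 and 643 in STZ and at 1949, 1282 and 1007 in STZ-A10. With a transplant after STZ they were at 788, 1051 and 317 in A10-FMT and at 939, 1161 and 967 in Con-FMT. The STZ libraries overlapped those of Con, and the highest and the lowest STZ libraries lay on either side of all 3 A10 libraries. Each group overlapped the next in the order of means (STZ-A10, A10, STZ, Con-FMT, Con, A10-FMT), and the 95% interval of the log2 fold change included 0 in all 7 comparisons between groups. Ccl21b, the other CCL21 gene, was at 3.52% to 6.49% of Ccl21a (median 5.31%) and followed its pattern over the libraries (r = 0.96 on the log2 scale, n = 18). Their reads cannot be told apart over most of the coding sequence.

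**Figure D1:**
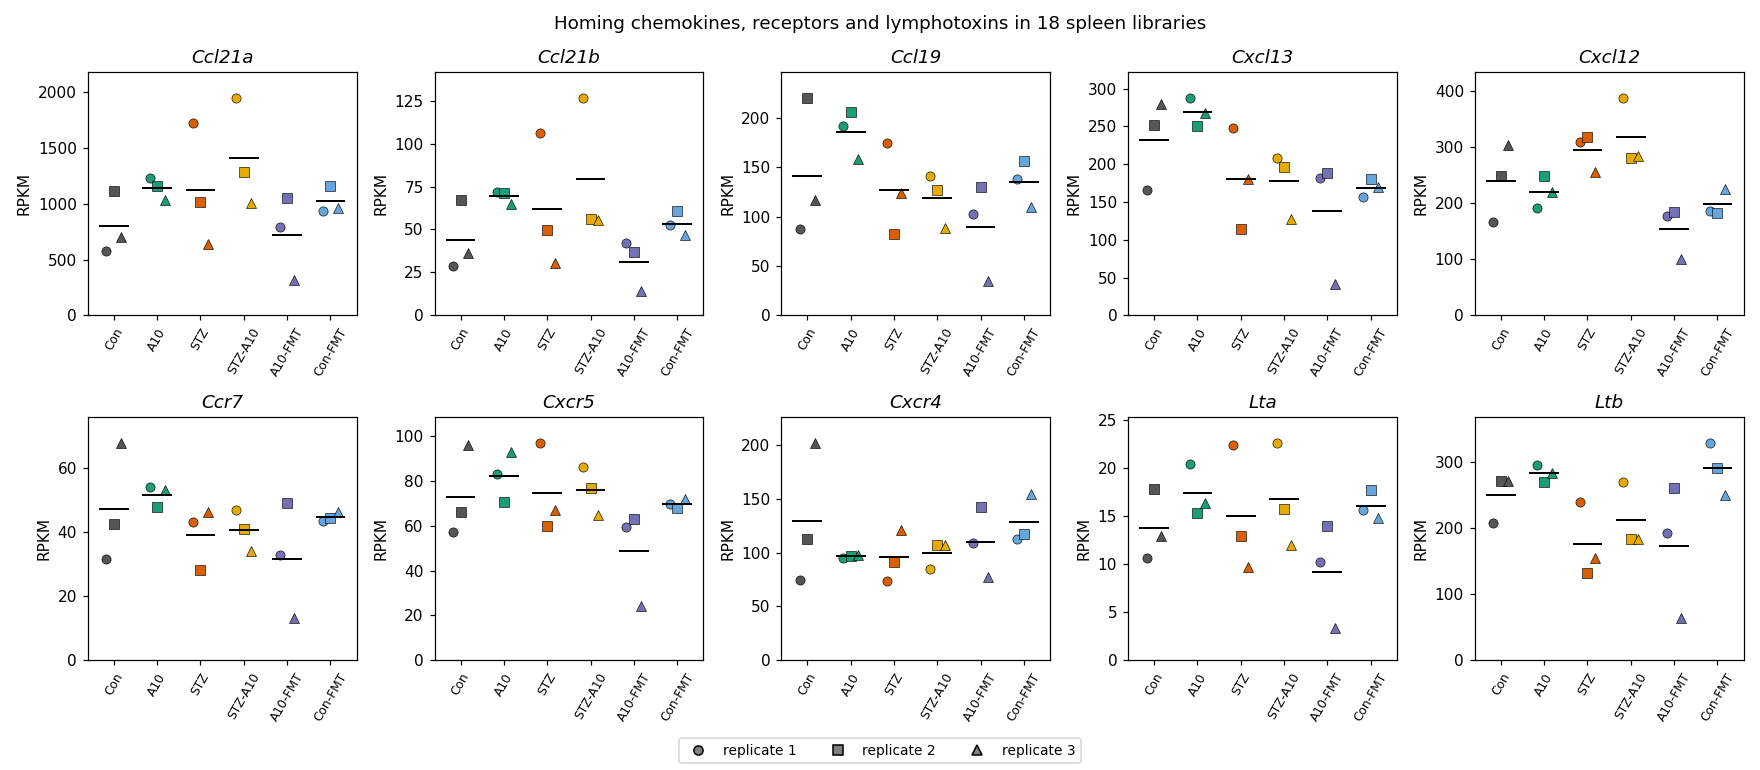
RPKM (vertical axis, from 0) of each of the 10 genes in the 6 groups (horizontal axis); each point is a library, its shape gives the replicate number, and bars are group means. A10-FMT replicate 3 (the purple triangle) is the lowest point in 9 of the 10 panels, and in Cxcr4 it is not.

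In A10-FMT, Ccl21b was at 42.4, 37.0 and 14.3 RPKM, and in Con-FMT at 52.8, 60.9 and 46.6. All 3 A10-FMT libraries were below all 3 Con-FMT libraries, as for 23.9% of the 12905 genes tested. The log2 fold change was -0.88 (95% interval -1.85 to 0.08, adjusted p = 0.230 with limma), and -0.41 without A10-FMT replicate 3. Against STZ, at 106, 49.6 and 30.7 RPKM, A10-FMT overlapped and the log2 fold change was -0.92 (adjusted p = 0.301), and -0.45 without A10-FMT replicate 3.

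Ccl19, the second CCR7 ligand, was at 7.23% to 19.7% of Ccl21a. In Con it was at 87.7, 220.04 and 117 RPKM, and in A10 at 192, 205 and 158. In STZ it was at 174, 82.6 and 124, and in STZ-A10 at 141, 127 and 87.99. The A10-FMT libraries were at 103, 129 and 34.8, and in Con-FMT at 138, 157 and 109. The 3 STZ-A10 libraries were all below the 3 A10 libraries, as for 14.9% of genes in this comparison, but the means of Con, Con-FMT and STZ lay between theirs. The log2 fold change of STZ-A10 against A10 was -0.66 (SE 0.42, 95% interval -1.55 to 0.23, adjusted p = 0.665), and that of A10-FMT against Con-FMT was -0.77 (adjusted p = 0.243) with all libraries and -0.21 without A10-FMT replicate 3.

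Cxcl13, the B cell attractant of the follicles, was at 166, 251 and 279.64 RPKM in Con and at 288, 250.35 and 268 in A10. It was at 248, 114 and 179.93 in STZ and at 209, 196 and 127 in STZ-A10. The transplant groups were at 182, 189 and 41.6 in A10-FMT and at 157, 181 and 169.63 in Con-FMT. The groups given no STZ had the highest means, 269 ± 18.7 RPKM in A10 and 232 ± 59.0 in Con (SD, n = 3), and the 4 STZ-treated groups had means from 138 to 181. This order was noticed in the values and not tested as such. The lowest mean, that of A10-FMT, includes replicate 3 at 41.6 RPKM. The log2 fold change of A10-FMT against STZ was -0.60 with all libraries and 0.11 without A10-FMT replicate 3. Between STZ and Con the libraries overlapped, with a log2 fold change of -0.40 (95% interval -1.33 to 0.53, adjusted p = 0.828), which ran from -0.66 to -0.10 with each library left out in turn. Between STZ-A10 and A10 they did not overlap, with STZ-A10 lower, as for 14.9% of genes. The log2 fold change of -0.62 (SE 0.44, 95% interval -1.55 to 0.31, adjusted p = 0.704) did not pass the threshold either.

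Cxcl12, the stromal ligand of CXCR4, was the gene of the 10 whose groups differed most by p. In Con it was at 166, 249.55 and 305 RPKM, and in A10 at 192, 249 and 221. In STZ it was at 309, 318 and 256, and in STZ-A10 at 388, 281 and 285. After a transplant it was at 177, 184 and 101 in A10-FMT and at 186, 183 and 225 in Con-FMT. The 6 libraries given STZ without a transplant were at 256 to 388 RPKM. They lay above all 6 libraries given STZ and a transplant, at 101 to 225. This split was noticed in the values and not tested as such, and the share of all genes that split likewise was not counted. The Con libraries spread over both ranges and the A10 libraries lay from 192 to 249.

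Over the 6 groups, Cxcl12 was at an adjusted p of 0.109 in limma's F test (unadjusted p = 0.00436), so the difference did not pass the threshold of 0.05 over all 12905 genes, where 58 genes (0.449%) passed. Among the 7 comparisons made, the largest difference was between A10-FMT and STZ, with a log2 fold change of -0.97 (SE 0.24, 95% interval -1.47 to -0.47, adjusted p = 0.137). The A10-FMT libraries were all below the STZ libraries, as for 12.1% of genes, and the log2 fold change was -0.69 (adjusted p = 0.465) without A10-FMT replicate 3. Over 28 alternatives it stayed negative, from -1.12 to -0.49, and its adjusted p ran from 0.00194 with array weights to 0.675. Con-FMT was also below STZ without overlap, as for 6.22% of genes, with a log2 fold change of -0.57 (SE 0.24, 95% interval -1.07 to -0.07, adjusted p = 0.918). STZ-A10 was above A10 without overlap, as for 7.69% of genes, with a log2 fold change of 0.52 (SE 0.24, 95% interval 0.02 to 1.02, adjusted p = 0.467). Against Con, which overlapped it, STZ gave 0.33 (SE 0.24, adjusted p = 0.691), and 0.0862 to 0.52 with each library left out in turn. The comparisons of A10-FMT, Con-FMT and Con with STZ share its 3 libraries.

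Levels of other cell types' genes were read beside Cxcl12. Summed markers of 13 reticular stroma genes ranged from 110 to 153 RPKM over the STZ libraries, from 124 to 196 over STZ-A10, from 65.8 to 150.44 over A10-FMT and from 132 to 164 over Con-FMT, so they overlapped between STZ and both transplant groups, where Cxcl12 did not. Summed markers of 12 exocrine pancreas genes, from tissue that lies against the spleen, ranged from 1396 to 6334 RPKM over the STZ libraries, from 6388 to 9954 over STZ-A10, from 189 to 23661 over A10-FMT and from 1913 to 3292 over Con-FMT, and did not exceed 2118 in Con or A10. Summed markers of 10 liver genes ranged from 5.61 to 7.47 RPKM over the STZ libraries, with 1 to 4 of the 10 at 0, and from 102 to 351 over A10-FMT, with none at 0. They ranged from 8.97 to 46.5 over Con-FMT, from 5.86 to 19.1 over STZ-A10 and from 22.0 to 79.7 over A10. Over Con they ranged from 21.1 to 249.61. The liver markers did not overlap in the 3 comparisons in which Cxcl12 did not. They also did not overlap between STZ and Con or between A10-FMT and Con-FMT, where Cxcl12 did. Summed markers of 8 adipose genes ranged from 9.25 to 29.4 RPKM over STZ, from 40.7 to 102 over A10-FMT and from 20.7 to 142 over Con-FMT, and from 28.9 to 78.8 over STZ-A10 against 91.3 to 268 over A10. The part of these cell types in the Cxcl12 values was not tested. When each library was centred on its T and B cell markers, a scaling chosen after the values were seen, the log2 fold change was -0.49 (adjusted p = 0.629) for A10-FMT against STZ and -0.95 (adjusted p = 0.548) for Con-FMT against STZ. This centring also moved the median of all genes, from -0.15 to 0.33 in the first comparison and from 0.0016 to -0.38 in the second.

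Ccr7, the receptor of CCL21 and CCL19 on naive T cells and mature dendritic cells, was at 31.6, 42.6 and 68.0 RPKM in Con and at 54.1, 47.8 and 53.1 in A10. It was at 43.2, 28.3 and 46.4 in STZ and at 47.0, 41.0 and 34.3 in STZ-A10. Among transplanted mice it was at 32.8, 49.2 and 13.2 in A10-FMT and at 43.5, 44.3 and 46.5 in Con-FMT. The Con group held nearly the whole range seen outside A10-FMT, and the Con-FMT libraries were the tightest, with a coefficient of variation of 3.47%. STZ-A10 was below A10 without overlap, as for 14.9% of genes, with a log2 fold change of -0.35 (SE 0.35, 95% interval -1.09 to 0.40, adjusted p = 0.828). A10-FMT against Con-FMT gave -0.66 (SE 0.35, adjusted p = 0.237), and -0.15 without A10-FMT replicate 3. In a bulk sample of a whole organ, fewer cells of a type and less RNA per cell cannot be told apart.

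Cxcr5, the CXCL13 receptor of B cells and follicular helper T cells, was at 57.2, 66.02 and 96.0 RPKM in Con and at 83.2, 70.6 and 92.9 in A10. It was at 97.1, 60.1 and 67.1 in STZ and at 86.2, 76.8 and 64.9 in STZ-A10. In A10-FMT it was at 59.3, 62.9 and 24.2, and in Con-FMT at 69.8, 67.8 and 72.1. The A10-FMT group lay below Con-FMT without overlap, as for 23.9% of the 12905 genes tested. These groups were the only neighbours in the order of group means of any of the 10 genes that did not overlap. The log2 fold change was -0.62 (SE 0.29, 95% interval -1.24 to -0.01, adjusted p = 0.209) against Con-FMT and -0.69 (SE 0.29, adjusted p = 0.269) against STZ. Without A10-FMT replicate 3 these were -0.19 and -0.26.

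Cxcr4, the CXCL12 receptor, which most leukocytes carry, had the narrowest range of the 10, with the highest library 2.74 times the lowest. In Con it was at 74.4, 113 and 202 RPKM, and in A10 at 95.3, 96.6 and 98.0. In STZ it was at 73.9, 91.5 and 122, and in STZ-A10 at 84.5, 107 and 107. In A10-FMT it was at 109, 143 and 77.2, and in Con-FMT at 113, 117 and 155. Con alone spanned nearly the whole range and A10 hardly varied, and all groups overlapped the next in the order of means. Con replicate 1, the lowest Con library, was also the library with the highest summed markers of neutrophil progenitors (5969 RPKM, against 1715 and 300.68 in the other Con libraries and at most 671 in the other groups), whose part in the Cxcr4 value was not tested.

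Lta and Ltb, which together form the membrane-bound lymphotoxin of lymphocytes, lie 6844 bases apart on chromosome 17 (Ltb at 35194439 to 35196320 on the plus strand, Lta at 35203165 to 35205351 on the minus strand). Per gene length Lta was at 4.74% to 9.73% of Ltb. Ltb was at 207, 272 and 271 RPKM in Con and at 296, 269 and 283 in A10. It was at 239, 133 and 155 in STZ and at 269.82, 183 and 183 in STZ-A10. In A10-FMT it was at 192, 261 and 63.6, and in Con-FMT at 329, 292 and 250.1. The 3 Con-FMT libraries were all above the 3 STZ libraries, as for 6.94% of genes, with a log2 fold change of 0.76 (SE 0.37, 95% interval -0.03 to 1.54, adjusted p = 0.943). STZ against Con gave -0.54 (SE 0.37, 95% interval -1.33 to 0.24, adjusted p = 0.669), with 2 of 3 STZ libraries below all Con libraries.

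Lta was at 10.6, 17.8 and 12.9 RPKM in Con and at 20.4, 15.3 and 16.4 in A10. It was at 22.4, 12.9 and 9.74 in STZ and at 22.6, 15.7 and 11.9 in STZ-A10. In A10-FMT it was at 10.2, 13.99 and 3.31, and in Con-FMT at 15.6, 17.7 and 14.8. A10-FMT was below Con-FMT without overlap for Lta, as for 23.9% of genes (log2 fold change -0.92, SE 0.38, 95% interval -1.72 to -0.12, adjusted p = 0.204). For Ltb it was below with overlap (-0.96, SE 0.37, 95% interval -1.75 to -0.18, adjusted p = 0.204). Both values rested largely on A10-FMT replicate 3 and became -0.39 and -0.36 without it. Without A10-FMT replicate 2, the highest of the 3, they became -1.29 and -1.37 and passed the adjusted threshold, together with Ccr7 (-1.06). That fit keeps A10-FMT replicate 3. The share of all genes that passed in it is not given here, so these calls are not read as particular to these genes.

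Across the comparisons, 0 of the 10 genes passed an adjusted p of 0.05 in limma's moderated test. For STZ against Con this count stands beside 0.163% of all 12905 genes, and 0 of the 10 were under an unadjusted p of 0.05 against 11.1% of all genes. Of the 10, 5 had a positive and 5 a negative log2 fold change, with a median of -0.04 against -0.01 over all genes. For A10 against Con (0.00775% of all genes called) 0 of 10 were under an unadjusted p of 0.05 against 5.25%, and for STZ-A10 against STZ (0.00775%) 0 of 10 against 2.93%. For STZ-A10 against A10 (0.0542%) 1 of 10, Cxcl12, was under it against 10.2% of all genes.

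For A10-FMT against STZ (0.00775% of all genes called) Cxcl12 and Cxcr5 were under an unadjusted p of 0.05, 2 of 10 beside 17.2% of all genes, and 9 of 10 log2 fold changes were negative. Their median was -0.66, against -0.15 over all genes. Without A10-FMT replicate 3, 1 of 10 (Cxcl12) was under it beside 7.85% of all genes, 6 of 10 were negative, and the median was -0.13 against -0.07 over all genes. For Con-FMT against STZ (0.00775%) 1 of 10, Cxcl12, was under it beside 5.24%. For A10-FMT against Con-FMT (0% of all genes called) Cxcr5, Lta and Ltb were under it, 3 of 10 beside 23.6%, and all 10 log2 fold changes were negative, with a median of -0.67 against -0.17 over all genes. Without A10-FMT replicate 3, 0 of 10 were under it beside 3.60% of all genes, 9 of 10 were negative and Cxcl13 was at 0.14, and the median was -0.18 against -0.09 over all genes. Centring on T and B cell markers moved all genes to a median of 0.69 in this comparison and the 10 genes to a median of 0.19, with 7 of 10 positive. For the interaction of STZ and AOS, which asks whether STZ acted differently in mice given AOS, 0 of 10 were under it beside 2.86% of all genes, with 0% called. Over the 6 groups, 1 of 10 (Cxcl12) was under it beside 22.6%. The shares among the 10 were near or below the share among all genes in each of these comparisons except Con-FMT against STZ, where the share of 1 in 10 is a single gene.

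**Figure D2:**
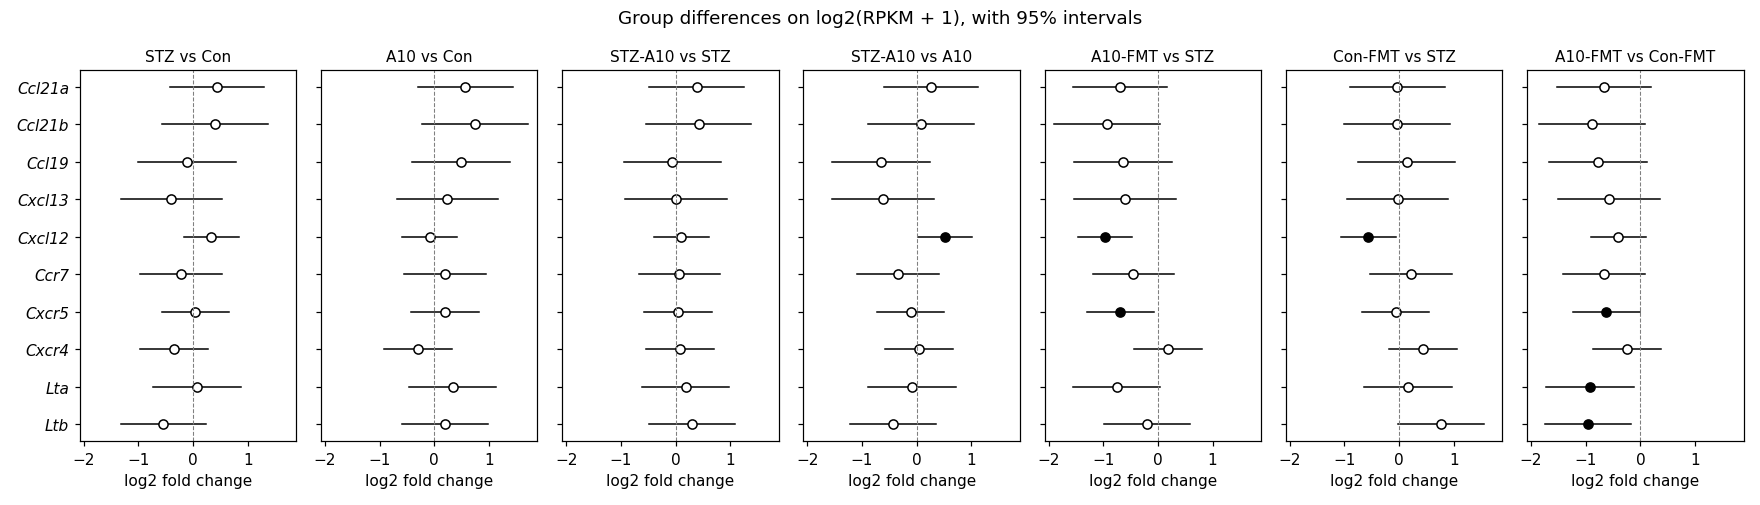
Log2 fold changes (horizontal axis, log2 of RPKM + 1) of the 10 genes in 7 comparisons of groups of 3 libraries, first group over second, with 95% intervals from limma; filled points have an unadjusted p under 0.05. Filled points are Cxcl12 in 3 panels, Cxcr5 in 2, and Lta and Ltb in 1, and no gene passed after adjustment.

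Whether a chemokine and its receptor vary together across spleens was asked for 5 ligand and receptor pairs over the 18 libraries, among 18 relations adjusted together, with Pearson's r on the log2 scale and permutation tests. Cxcl13 and Cxcr5 varied together, with r = 0.904 (permutation p = 3e-05, adjusted p = 9e-05) and Spearman's rho = 0.707 (permutation p = 0.00146, adjusted p = 0.00292). Without the 2 libraries farthest from the median of Cxcl13 (STZ replicate 2 and A10-FMT replicate 3) r was 0.673, and with values centred within groups it was 0.937. Ccl19 and Ccr7 had r = 0.816 (permutation p = 0.00047, adjusted p = 0.000846), rho = 0.587 (permutation p = 0.0115, adjusted p = 0.0159), 0.637 without the 2 farthest libraries and 0.733 within groups (adjusted p = 0.0845).

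Ccl21a and Ccr7 had r = 0.599 (permutation p = 0.0191, adjusted p = 0.0215) but rho = 0.329 (permutation p = 0.181, adjusted p = 0.192). Without STZ-A10 replicate 1 and A10-FMT replicate 3, the farthest on Ccl21a, r was 0.110, and without A10-FMT replicate 3 alone it was 0.143, so the relation rests on those libraries. Ccl21b and Ccr7 had r = 0.569 (permutation p = 0.0217, adjusted p = 0.0230) and rho = 0.333 (permutation p = 0.173), and 0.119 without the same 2 libraries. Cxcl12 and Cxcr4 had r = 0.150 (permutation p = 0.548, adjusted p = 0.548) and rho = -0.0609 (permutation p = 0.812), and 0.593 within groups (adjusted p = 0.134). The lymphotoxin and CCL21 pair drawn with them, Lta and Ccl21a, is described further on.

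**Figure D3:**
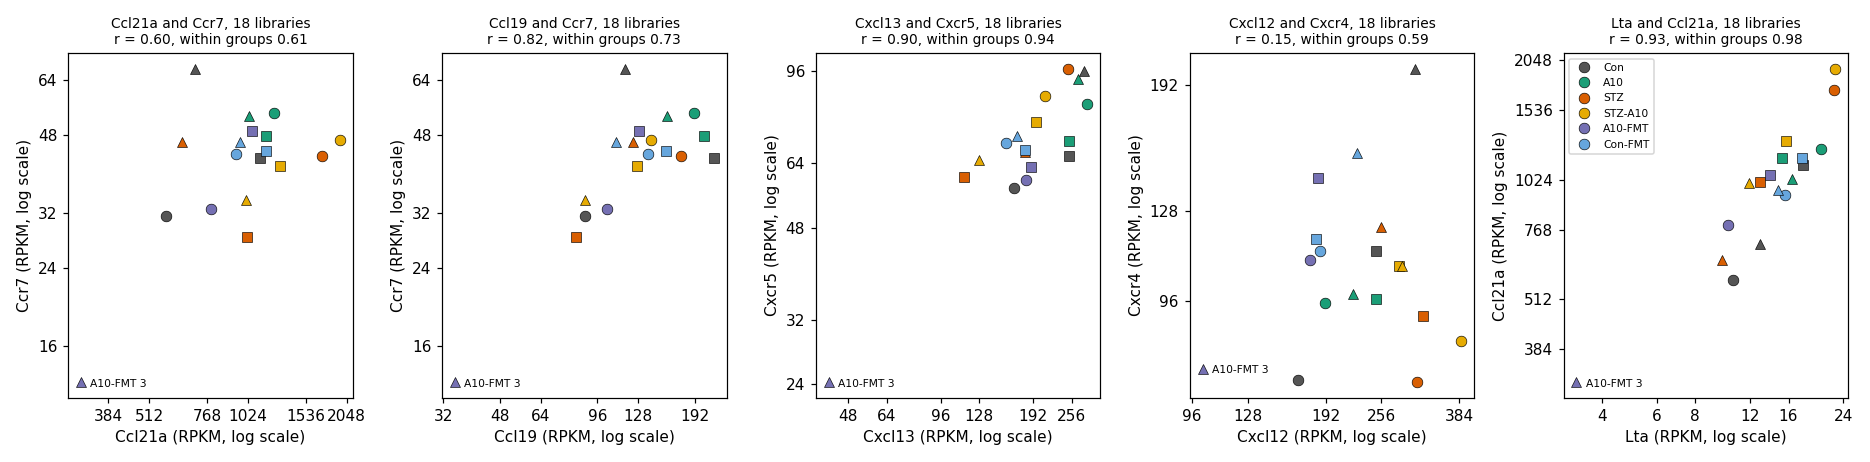
RPKM of 4 chemokines against their receptors and of Lta against Ccl21a, with both axes on a log scale; each point is a library, coloured by group, with shapes for replicates 1 (circle), 2 (square) and 3 (triangle), and r is Pearson's over 18 libraries and after centring within groups. A10-FMT replicate 3 is the lowest point of the panels with Ccr7 and Cxcr5, and the Ccl21a and Ccr7 panel has little slope left among the other 17 libraries (r = 0.143).

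Unmatched pairs of a chemokine and the other zone's receptor varied together as well. Cxcl13 and Ccr7 had r = 0.916 (permutation p = 1e-05, the smallest that 100000 permutations can give, adjusted p = 4.5e-05; rho = 0.736, permutation p = 0.0007), Ccl21a and Cxcr5 had r = 0.757 (permutation p = 0.00136, adjusted p = 0.00188; rho = 0.577, permutation p = 0.0135), and Ccl19 and Cxcr5 had r = 0.785 (permutation p = 0.00191, adjusted p = 0.00246; rho = 0.598, permutation p = 0.0097). Without the 2 farthest libraries of each pair these were 0.681, 0.414 and 0.579. With values centred and permuted within groups they were 0.909 (adjusted p = 0.00478), 0.728 (adjusted p = 0.0621) and 0.714 (adjusted p = 0.0845). The r of Ccl21a with its own receptor gene was therefore below its r with Cxcr5; the difference was not tested. Among the 36 pairs of the 9 genes other than Cxcr4, r ran from 0.361 to 0.960 with a median of 0.772, while the 9 pairs with Cxcr4 ran from -0.159 to 0.549 with a median of 0.158.

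**Figure D4:**
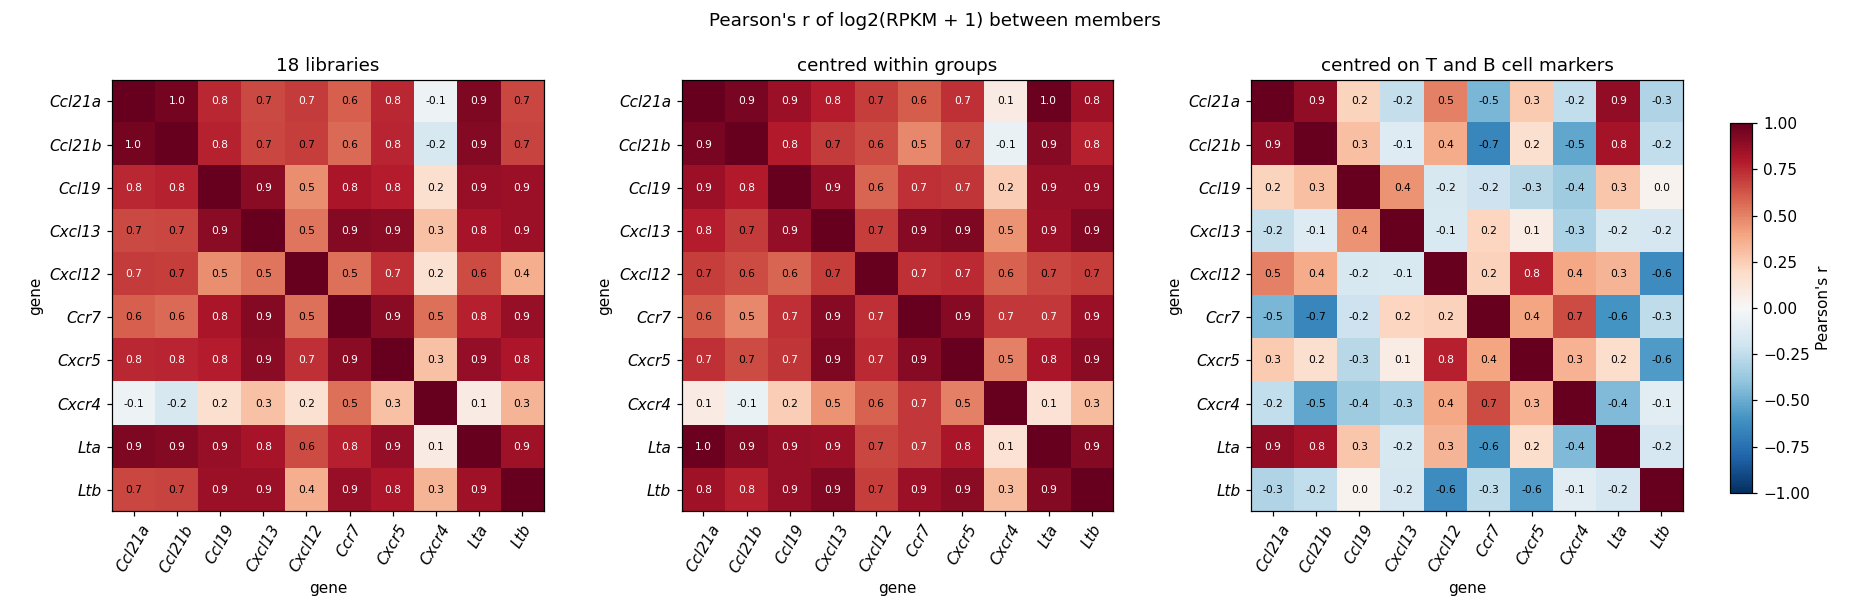
Pearson's r between the 10 genes (both axes, log2 of RPKM + 1) over 18 libraries (left), after centring within the 6 groups (middle) and after centring each library on its T and B cell markers (right), with colours from -1 (blue) to 1 (red). The left and middle panels are red except in the row of Cxcr4, and in the right panel the pairs of Ccl21a, Ccl21b and Lta stay red while most others do not.

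Levels of cell type markers moved with these genes across the same libraries. Ccr7 followed the mean of 14 T cell markers (r = 0.928, permutation p = 1e-05, adjusted p = 4.5e-05; rho = 0.862, permutation p = 1e-05; r = 0.846 without the 2 farthest libraries), Cxcr5 the mean of 12 B cell markers (r = 0.955, permutation p = 1e-05, adjusted p = 4.5e-05; rho = 0.893, permutation p = 1e-05; r = 0.832 without them), and Ltb the same B cell markers (r = 0.931, permutation p = 2e-05, adjusted p = 7.2e-05; rho = 0.759, permutation p = 0.00028; r = 0.741). Summed over the list, the B cell markers were lowest in A10-FMT replicate 3 (686 RPKM), while the other A10-FMT libraries were at 2062 and 2320 RPKM. They spread widely in Con (1824 to 3130), STZ (1640 to 3076) and STZ-A10 (1882 to 2828), and were closer together in A10 (2521 to 2886) and Con-FMT (2480 to 2648); all 12 were above 0 in every library. The summed T cell markers were at 97.6 to 379.80 RPKM for A10-FMT, 262 to 464 for Con, 253 to 375 for STZ, 276 to 451 for STZ-A10, 486 to 540 for A10 and 408 to 455 for Con-FMT. As descriptions over 18 libraries that share a denominator, the r of 9 of the 10 genes with the hemoglobin share ran from -0.596 (Cxcl12) to -0.780 (Cxcr5), and that of Cxcr4 was -0.0242. Without A10-FMT replicate 3 the 9 ran from -0.467 (Cxcl12) to -0.861 (Cxcr5), and Cxcr4 was at 0.124.

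**Figure D5:**
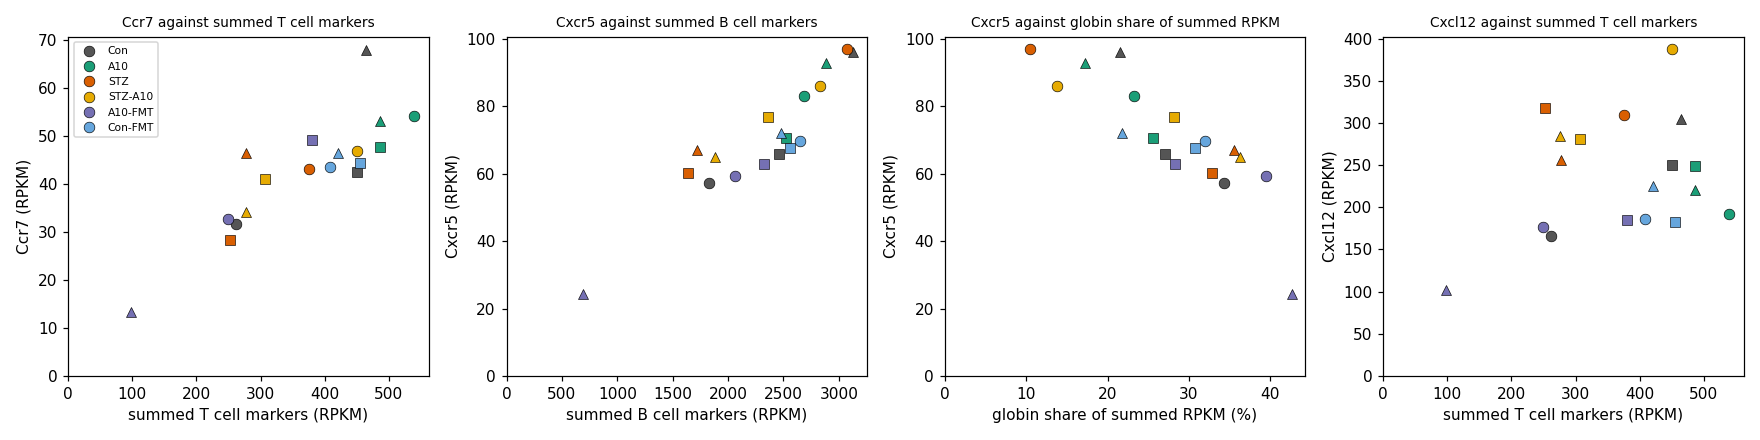
From left to right, Ccr7 against summed T cell markers, Cxcr5 against summed B cell markers, Cxcr5 against the hemoglobin share of summed RPKM in percent, and Cxcl12 against summed T cell markers, all in RPKM except that share and with axes from 0; points are libraries, colours groups and shapes replicates. Ccr7 and Cxcr5 lie along a line with the markers (r = 0.928 and 0.955 on the log2 scale). In the last panel every STZ and STZ-A10 library has more Cxcl12 than every transplant library. T cell marker levels of these libraries match only in part. All Con-FMT libraries (408 RPKM or more) exceed all STZ libraries (375 or less), and A10-FMT replicate 3 (97.6) is below the rest. The part of T cells in the Cxcl12 values was not tested.

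When each library was centred on the mean log2 value of the T and B cell markers, a scaling chosen after the values were seen, most relations were gone. Cxcl13 and Cxcr5 had r = 0.0773 (adjusted p = 0.803), Ccl19 and Ccr7 had -0.211 (adjusted p = 0.611), Ccl21a and Ccr7 had -0.457 (adjusted p = 0.266) and Cxcl13 and Ccr7 had 0.214 (adjusted p = 0.611). Of the 18 relations, 3 passed: Ccl21b and Ccr7 with r = -0.651 (adjusted p = 0.0213), Lta and Ccl21a with 0.890 (adjusted p = 0.00036) and Cxcr5 and B cell markers with 0.689 (adjusted p = 0.0174). Subtracting the same quantity from both sides of a relation can itself set the sign or the size of a remaining r, negative or positive. The B cell markers are also part of the quantity subtracted. These 3 values are therefore given as values only.

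Lta and Ccl21a, a lymphotoxin gene and the chemokine gene of the stroma, had the relation whose r moved least over these settings among the 18. Their r was 0.932 over 18 libraries (permutation p = 1e-05, adjusted p = 4.5e-05), rho was 0.870 (permutation p = 2e-05, adjusted p = 0.00012), and r was 0.863 without the 2 farthest libraries (STZ replicate 3 and A10-FMT replicate 3) and 0.977 within groups (adjusted p = 0.00108). Lta had r = 0.871 with Ccl19 (permutation p = 4e-05, adjusted p = 0.000103; rho = 0.814, permutation p = 4e-05) and 0.824 with Cxcl13 (permutation p = 0.0011, adjusted p = 0.00165; rho = 0.626, permutation p = 0.0064), and these were 0.740 and 0.512 without the 2 farthest libraries. Ltb, the more abundant lymphotoxin gene, had r = 0.855 with Ccl19 (permutation p = 7e-05, adjusted p = 0.000157; rho = 0.728), 0.856 with Cxcl13 (permutation p = 0.00032, adjusted p = 0.00064; rho = 0.600) and 0.667 with Ccl21a (permutation p = 0.00679, adjusted p = 0.00815; rho = 0.370). Without the 2 farthest libraries the Ltb values were 0.571, 0.442 and 0.365. Lta and Ccl21a both reached their highest values in STZ-A10 replicate 1 and STZ replicate 1, the libraries with the lowest hemoglobin shares (13.7% and 10.4%). The part of composition in their relation was not tested, and the centring above cannot decide it.

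The genes whose pattern over the 18 libraries was most like each of the 10, among genes tested with a mean of at least 5 RPKM, are a description with no test. For Ccr7 they were Cytip (r = 0.974), Ptprc (0.969) and Ifnar1 (0.969), where Ptprc encodes the leukocyte antigen CD45. For Cxcr5 they were Cyth1 (0.983) and Il16 (0.979). For Cxcl12 they were Csf1 (0.967), the macrophage growth factor gene, Chst15 (0.967) and Rapgef5 (0.963). Ccl19 was closest to Mfge8 (0.939), a product of follicular dendritic cells and macrophages, and Cxcl13 to Orai3 (0.961), a calcium channel subunit. Ccl21a was closest to LOC108167440 (0.951), Slco2b1 (0.946) and Rabac1 (0.943), and Ccl21b to Zfpl1 (0.946). Lta was closest to Zc3h12d (0.972), Ltb to Rfx1 (0.983) and Ikbke (0.978), and Cxcr4, with the weakest likeness, to Zfx (0.898).

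Other genes of the same pathways were read beside the 10 in 4 lists: 22 other homing chemokines and receptors (20 tested), 23 genes of guidance and adhesion, 22 of lymphotoxin and NF-kB signalling, and 18 of signalling below chemokine receptors. Of the 83 tested genes, 0 passed an adjusted p of 0.05 with limma in any comparison.

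Among the other homing chemokines, STZ against Con had 3 positive and 17 negative log2 fold changes, with a median of -0.34 against -0.01 over all genes and 5 under an unadjusted p of 0.05 (beside 11.1% of all genes), all lower. STZ-A10 against A10 had the same split of 3 and 17, a median of -0.40 against -0.03 over all genes, and 8 under an unadjusted p of 0.05 (beside 10.2% of all genes), 7 of them lower. Cxcl9, an interferon-induced T cell attractant, was at 7.35 ± 1.05 RPKM in STZ-A10 and 18.1 ± 3.43 in A10 (SD, n = 3), a log2 fold change of -1.18 (adjusted p = 0.0943, SE 0.26). Its receptor gene Cxcr3, of activated T cells, was at 19.4 ± 4.96 RPKM in A10 and 9.68 ± 2.16 in Con (log2 fold change 0.93, adjusted p = 0.657), and at 12.6 ± 2.87 in STZ-A10 and 6.80 ± 1.80 in STZ (0.80, adjusted p = 0.996). Ccr2, the monocyte receptor, was at 4.75 ± 1.70 RPKM in STZ and 9.82 ± 4.09 in Con (-0.90, adjusted p = 0.168). Ackr3, a scavenging receptor that takes up CXCL12, was at 25.5 ± 10.5 RPKM in STZ-A10 and 15.00 ± 1.17 in A10 (0.66, adjusted p = 0.411), the same direction as Cxcl12 in that comparison. Ccl5, made by activated T cells, was at 155 ± 35.0 RPKM in Con-FMT and 89.1 ± 15.04 in STZ (0.78, adjusted p = 0.924). A10-FMT against Con-FMT had 8 of 20 under an unadjusted p of 0.05, all lower, beside 23.6% of all genes. Without A10-FMT replicate 3 it had 0 of 20 beside 3.60%. A10-FMT against STZ had 1 of 20, lower, beside 17.2%, and 0 of 20 beside 7.85% without that replicate.

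In the guidance and adhesion list, STZ against Con had 7 of 23 genes under an unadjusted p of 0.05, 3 higher and 4 lower, beside 11.1% of all genes. A10-FMT against Con-FMT had 11 of 23 under it, all lower, beside 23.6%. Without A10-FMT replicate 3 this comparison had 3 of 23, all lower, beside 3.60%. A10-FMT against STZ had 5 of 23, all lower, beside 17.2%. Without A10-FMT replicate 3 it had 3 of 23, 1 higher and 2 lower, beside 7.85%. Ch25h, the enzyme that starts synthesis of the oxysterol attracting B cells through GPR183, was at 5.05 ± 0.603 RPKM in STZ and 2.48 ± 1.47 in Con (log2 fold change 0.88, adjusted p = 0.194) and at 2.31 ± 0.736 in Con-FMT (-0.89 against STZ, adjusted p = 0.842). S1pr2, a sphingosine 1-phosphate receptor that confines germinal centre B cells, was at 3.60 ± 0.431 RPKM in STZ, below Con at 6.89 ± 2.39 (-0.73, adjusted p = 0.327), STZ-A10 at 6.52 ± 1.97 (0.68 against STZ, adjusted p = 0.996) and Con-FMT at 8.07 ± 1.56 (0.97 against STZ, adjusted p = 0.798), while A10 was above Con at 11.7 ± 1.36 (0.73, adjusted p = 0.795). Madcam1, the adhesion molecule of the marginal sinus, was at 11.5 ± 2.93 RPKM in STZ-A10 and 25.5 ± 2.50 in A10 (-1.11, adjusted p = 0.418). S1pr1, the receptor lymphocytes use to leave lymphoid tissue, was at 42.5 ± 17.3 RPKM in A10-FMT and 77.7 ± 23.3 in STZ (-0.91, adjusted p = 0.238, and -0.52 without A10-FMT replicate 3). Klf2, the transcription factor that keeps S1pr1 on in resting lymphocytes, was at 62.1 ± 29.9 RPKM in A10-FMT and 111 ± 12.7 in Con-FMT (-0.94, adjusted p = 0.204, and -0.52 without A10-FMT replicate 3). Sphk1, which makes sphingosine 1-phosphate, was at 20.2 ± 3.01 RPKM in STZ-A10, between STZ at 30.6 ± 2.72 (-0.58, adjusted p = 0.996) and A10 at 13.8 ± 2.92 (0.53, adjusted p = 0.328), and at 23.6 ± 2.42 in A10-FMT against 18.4 ± 1.18 in Con-FMT (0.34, adjusted p = 0.259, and 0.37 without A10-FMT replicate 3).

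In the lymphotoxin and NF-kB list, Tnfsf14, which encodes LIGHT, another ligand of the lymphotoxin beta receptor, was at 3.82 ± 1.38 RPKM in STZ and 8.18 ± 2.85 in Con (log2 fold change -0.93, SE 0.23, adjusted p = 0.0860), and was the only 1 of the 22 under an unadjusted p of 0.05 in that comparison, beside 11.1% of all genes. Tnf was at 8.07 ± 0.689 RPKM in A10 and 5.58 ± 0.294 in Con (0.46, adjusted p = 0.989). In STZ-A10 against A10, its receptor gene Tnfrsf1a was at 24.5 ± 6.80 and 17.9 ± 1.10 RPKM (0.40, adjusted p = 0.328), and Tnfrsf13c, the BAFF receptor gene of B cells, at 82.3 ± 13.2 and 115 ± 18.1 (-0.48, adjusted p = 0.759). A10-FMT against Con-FMT had 12 of 22 under an unadjusted p of 0.05, all lower, beside 23.6% of all genes, and 0 of 22 beside 3.60% without A10-FMT replicate 3. A10-FMT against STZ had 9 of 22, all lower, beside 17.2%, and 2 of 22, all lower, beside 7.85% without that replicate.

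In the list of receptor signalling, STZ against Con had 1 positive and 17 negative log2 fold changes, with a median of -0.26, and STZ-A10 against STZ had 17 positive and 1 negative, with a median of 0.15 against 0.03 over all genes. These comparisons share the STZ libraries. Rgs13, a brake on chemokine receptor signalling in germinal centre B cells, was at 12.8 ± 4.40 RPKM in Con-FMT and 3.60 ± 0.970 in STZ (log2 fold change 1.56, SE 0.45, adjusted p = 0.798), and at 3.61 ± 0.984 in STZ-A10 and 10.1 ± 2.68 in A10 (-1.26, SE 0.45, adjusted p = 0.304). Arrb1, a beta-arrestin gene, was at 35.2 ± 3.53 RPKM in A10 and 50.7 ± 8.31 in Con (-0.50, adjusted p = 0.989). A10-FMT against Con-FMT had 12 of 18 under an unadjusted p of 0.05, all lower, beside 23.6% of all genes, and 1 of 18 beside 3.60% without A10-FMT replicate 3. A10-FMT against STZ had 2 of 18, all lower, beside 17.2%, and 1 of 18, higher, beside 7.85% without that replicate.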

How the data were processed

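The authors enriched poly(A) RNA, sequenced it and deposited RPKM per gene, a value scaled to gene length and to the mapped reads of the library. Their methods name SOAPaligner, the submitters' processing notes name Bowtie 0.12.2 and mm10, and the annotation is not given in the sources used here. Without read counts in the table, the depth is unknown, and intervals for counting error are not given. Ratios of low values, from only 32 genes, placed the deepest library at about 1.12 times the shallowest.

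From these values, log2(RPKM + 1) was fitted with limma 3.58.1 (trend) in R 4.3.3 for the 12905 genes at 1 RPKM or more in at least 3 libraries. All 18 libraries entered 1 model, with Benjamini-Hochberg adjustment over all genes and a threshold of 0.05; p-values are two-sided. The pseudocount shrinks fold changes of low genes. Relations were tested with 100000 permutations. The fit was run on simulated data with genes drawn independently, as a check of the code. That check does not measure power or error for the 10 genes in these libraries. The genes, lists and tests were chosen with earlier results of these data known. All 10 genes passed the filter and are named; of each pathway list, genes were named by the largest change in each direction per comparison at a mean of 5 RPKM or more in the higher group, and are printed where the libraries did not overlap. Positions are from GENCODE M21. Alternatives were other normalizations, filters, pseudocount, weights, a replicate block and each library left out.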

Additional observations from a re-analysis of the deposited data

How the results depend on the processing

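With 3 libraries a group, no read counts and a wide spread inside groups, a miss of the threshold does not show that levels were equal. Under quantile normalization, median centring, either other filter, no trend, a pseudocount of 0.1, a fit of the compared groups alone and centring on T and B cell markers (chosen after seeing the data), 0 of the 10 genes passed in every comparison. limma's default array weights could not be fitted stably, so gene-by-gene weights were used, which ran from 0.112 (A10-FMT replicate 3) to 7.37 (A10-FMT replicate 1). With them 3 genes passed in STZ against Con, 2 in STZ-A10 against A10, 1 in A10-FMT against STZ, 2 in Con-FMT against STZ, 5 in A10-FMT against Con-FMT and 9 over the 6 groups, and of the pathway lists 41, 23, 15, 30, 60 and 75, with 7 in A10 against Con. The share of all genes called with these weights is not given here, so the counts are not read as particular to these genes. The cause was not tested. Of list genes, quantile normalization called 1 in STZ-A10 against A10 and 1 over the 6 groups, median centring 1 and no trend 1 over the 6 groups, and a fit of the compared groups 3 in STZ-A10 against A10. With each library left out in turn, 0 to 3 of the 10 genes passed in A10-FMT against Con-FMT (3 without A10-FMT replicate 2) and 0 in the other comparisons; of list genes 0 to 44 passed there, 0 to 2 in STZ against Con, 0 to 2 in STZ-A10 against A10 and 0 to 15 over the 6 groups. The shares of all genes that passed in these alternative fits are not given here either.

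With the replicate block, 0 of the 10 genes and 0 list genes passed in any comparison, as without it. Deviations of same-numbered libraries correlated at -0.385 to 0.571 (median 0.0441, 14 of 45 over 0.1). Those of different-numbered libraries correlated at -0.584 to 0.511 (median -0.00941, 23 of 90 over 0.1). Of 18 libraries, 9 correlated best with a library of their own number. Whether the numbers pair the libraries was not tested, and these values do not settle it.

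Centring on T and B cell markers turned the sign in A10-FMT against Con-FMT of 7 of the 10 genes, Ccl19 (0.0853), Ccl21a (0.19), Ccr7 (0.20), Cxcr5 (0.23), Cxcl13 (0.28), Cxcl12 (0.46) and Cxcr4 (0.61), and in STZ-A10 against A10 of Ccr7 (0.0316), Cxcr5 (0.26) and Lta (0.29). In A10-FMT against STZ it turned Ccr7 (0.0321) and Ltb (0.28), and signs also turned in the other 4 comparisons between groups. It moved the median of all genes from -0.17 to 0.69 in A10-FMT against Con-FMT and from -0.03 to 0.34 in STZ-A10 against A10. Of the 18 relations 17 passed, 11 without the 2 farthest libraries, 3 after that centring and 10 to 17 with each library left out. With values centred and permuted within groups, the ligand and receptor pairs other than Cxcl13 and Cxcr5 did not pass (adjusted p from 0.0845 to 0.2). Ccl21a and Ccr7 had r = 0.608 within groups, 0.435 under median centring, -0.457 after marker centring, 0.110 without the 2 farthest libraries and 0.143 to 0.734 with each library left out. Ccl21b and Ccr7 had 0.479, 0.407, -0.651, 0.119 and 0.151 to 0.691 in the same order, and 0.453 under quantile normalization. Ccl19 and Ccr7 had 0.733 within groups and -0.211 after marker centring, and Cxcl13 and Cxcr5 0.0773. Cxcl12 and Cxcr4 had -0.0497 under median centring and -0.0648 to 0.277 with each library left out. Marker centring also gave -0.276 for Ccl19 and Cxcr5, -0.158 for Lta and Cxcl13, -0.304 for Ltb and Ccl21a, -0.165 for Ltb and Cxcl13, -0.123 for Ccr7 and T cell markers and -0.0937 for Ltb and B cell markers.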
